A study of Homo sapiens with 16 samples.

Results

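TOP2B occupancy was compared between untreated METTL7A-knockout and untreated wild-type PC9 cells, using every interval on chromosomes 1 to 22 of the 2 peak lists deposited for these groups. The wild-type list held 15018 such intervals and the knockout list 12141, together 27159 of the 44922 intervals in the 4 lists of the series. PC9 is a cell line from a human lung adenocarcinoma, driven by a mutant form of the receptor tyrosine kinase EGFR. Both groups were grown in the same medium with no drug and differed in the METTL7A genotype only, as far as the labels say. Each group had 2 replicate libraries for the TOP2B antibody, made by CUT&RUN from 2.5 ng of chromatin with 20000000 paired-end reads planned for each, and 1 list of peaks intersected by the authors from them. The labels do not say how METTL7A was removed, whether the knockout line is 1 clone, or whether replicates were separate cultures. The series also has treated cells, kept for 6 to 8 weeks under osimertinib raised from 100 nM, and 1 TOP2B list per genotype from them.

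TOP2B is the beta isoform of type II DNA topoisomerase, an enzyme that cuts both strands of a duplex, passes another duplex through the break and reseals it. It relieves torsion during transcription and is found at promoters and at the anchors of chromatin loops together with CTCF and cohesin. In CUT&RUN an antibody directs a nuclease to its target, and the fragments cut around the target are sequenced. METTL7A, on chromosome 12 and also named TMT1A, encodes a membrane-bound protein of the methyltransferase-like family. The comparison asks where TOP2B is found without METTL7A and without drug, in a series concerned with priming for drug resistance and gene amplification.

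The intervals of the lists differed in width as well as in number. The median wild-type interval was 2600 bp wide (quartiles 1950 and 3600), and the list covered 47.5 Mb. The median knockout interval was 1650 bp wide (1250 and 2200), and its list covered 22.4 Mb, 0.471 times the wild-type length. The widest interval was 47600 bp in wild type and 21000 bp in the knockout. Intervals followed each other closely in both, with a median gap to the next interval of 8300 bp in wild type and 9150 bp in the knockout.

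Intervals that shared a chromosome, an area, a maximum and a region of the maximum were pieces of 1 called peak. Which replicate the area and maximum came from is not stated, so a called peak may be the call of 1 library. The wild-type list came from 10306 called peaks, of which 2796 (27.1%) were split, 438 of them into 4 or more pieces and the most split into 16. The knockout list came from 11942 called peaks, of which 198 (1.66%) were split, none into more than 3 pieces. The knockout therefore had 0.808 times the intervals of wild type but 1.16 times the called peaks. The lists also began at different signal levels: the smallest area of a called peak was 563 in wild type and 239 in the knockout, each on the scale of its own list. All maxima were whole multiples of a step, 0.0392 in wild type and 0.0723 in the knockout. The lowest maximum of a called peak was 5 steps in wild type and 2 in the knockout, and the median was 11 and 5. The area divided by the maximum, which is the shortest length over which the signal of a peak can be spread, had a median of 2700 bp in wild type and 920 bp in the knockout. The part that widths, splitting, steps and these lowest levels had in the differences below was not tested, beyond the values given beside them.

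Of the wild-type intervals, 9828 of 15018 (65.4%, exact 95% interval 64.7 to 66.2) had no knockout interval overlapping them by at least 1 bp, and 5190 had one. Of the knockout intervals, 5679 of 12141 (46.8%, 45.9 to 47.7) had no wild-type counterpart and 6462 had one. Intervals with a counterpart are called matched below, and those without one unmatched. Counting called peaks gave nearly the same shares, 65.4% of 10306 in wild type and 46.6% of 11942 in the knockout. By bases, 10.98 Mb were shared, which is 23.1% of the wild-type length and 49.1% of the knockout length. All intervals quoted here cover counting error only, and with 1 list per genotype there was no replicate spread to compare a difference with and no test.

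The share with a counterpart was larger among wide intervals and high peaks. In wild type, 15.1% (13.6 to 16.8) of the 1978 intervals of up to 1500 bp and 68.0% (66.3 to 69.7) of the 2927 intervals over 4000 bp overlapped a knockout interval. In the knockout, the same classes gave 42.9% (41.5 to 44.3) of 5004 and 94.3% (91.9 to 96.2) of 492. The knockout share was the larger in each of the 4 width classes. By the maximum of the called peak, the share in wild type went from 11.05% (9.98 to 12.2) in the lowest of 4 classes to 62.2% (60.7 to 63.6) in the highest. In the knockout it went from 39.9% (38.2 to 41.7) to 68.3% (66.5 to 70.1), so that the genotypes differed less among the highest peaks. These classes are unequal in size because many peaks share the same maximum. In 52.0% of wild-type and 12.0% of knockout intervals the listed maximum fell beyond the interval itself, and it fell outside every deposited piece for 3530 wild-type (34.3%) and 1265 knockout (10.6%) called peaks. A maximum therefore ranks the called peak an interval came from, not always the interval.

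**Figure D1:**
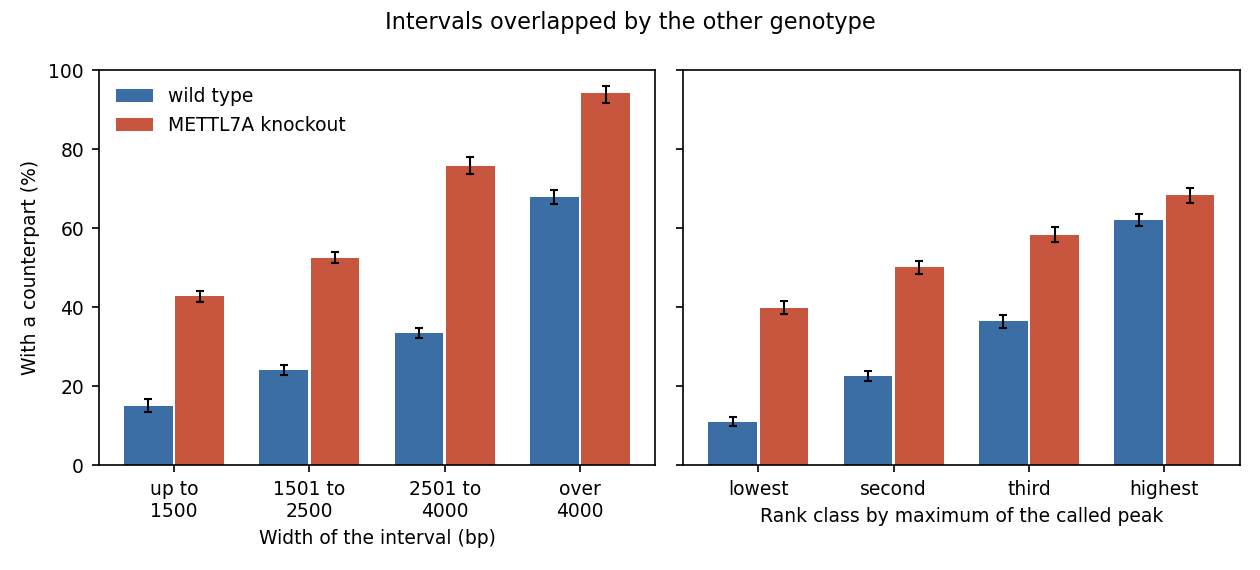
Share of intervals overlapped by an interval of the other genotype (vertical axis, %), by width class in bp (left) and by class of rank, 4 in each list, on the maximum of the called peak (right). Blue bars are wild type, red bars METTL7A knockout, and error bars are exact 95% intervals for counting error. Shares increase with width and maximum in both lists, from 15.1 to 68.0% over width in wild type and from 42.9 to 94.3% in the knockout.

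Where the lists overlapped, many knockout intervals sat inside a wider wild-type one. The overlap comprised 6737 pairs of intervals, and in 3345 of them (49.7%) the knockout interval lay wholly within the wild-type interval. The reverse held for 297 pairs (4.41%), 2 pairs were identical, and 3093 pairs (45.9%) overlapped in part. The median overlap was 1450 bp, which covered a median of 98.3% of the knockout interval and 33.0% of the wild-type interval. Midpoints were a median of 1150 bp apart (500 to 2200). More than 1 knockout interval fell on 1061 of the 5190 matched wild-type intervals (20.4%), whereas 272 of the 6462 matched knockout intervals (4.21%) met more than 1 wild-type interval. The wild-type interval with most partners was also the widest, at chr14:103974301-104021900 of GRCh37, and held 9 separate knockout intervals. Of the 4143 unmatched wild-type intervals that were pieces of a split peak, 1861 (44.9%) belonged to a called peak with another piece that was matched.

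Many unmatched intervals were close to an interval of the other genotype, in lists whose own median gaps were 8300 bp (wild type) and 9150 bp (knockout). The distance that such density alone would give was not tested. The median gap from an unmatched wild-type interval to the nearest knockout interval was 11.8 kb (3.45 to 44.4), and 6000 of 9828 (61.1%) were within 20 kb. For unmatched knockout intervals the median gap to wild type was 6.35 kb (1.65 to 26.6), and 4014 of 5679 (70.7%) were within 20 kb. Gaps of up to 1 kb made up 10.2% (9.58 to 10.8) of the unmatched wild-type intervals and 19.1% (18.04 to 20.1) of the unmatched knockout intervals. At the other end, 1500 wild-type intervals (15.3%) and 645 knockout intervals (11.4%) were over 100 kb from the other list, and 191 and 78 were over 1000 kb away.

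**Figure D2:**
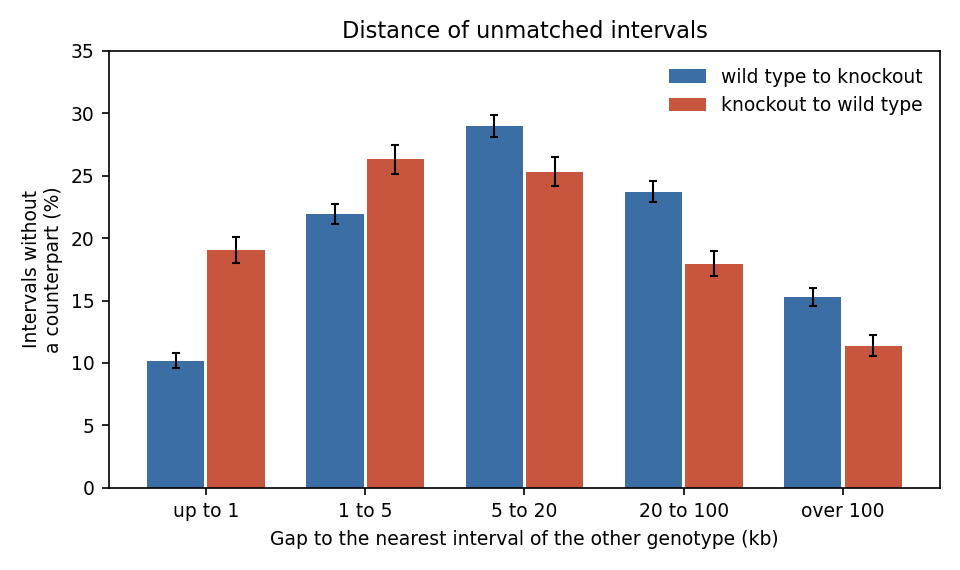
Gap in kb from each interval without a counterpart to the nearest interval of the other genotype (horizontal axis, classes), as a share of such intervals (vertical axis, %). Blue bars are the 9828 wild-type intervals, red bars the 5679 knockout intervals, and error bars are exact 95% intervals for counting error. Gaps of up to 1 kb took 10.2% in wild type and 19.1% in the knockout, and gaps over 100 kb 15.3 and 11.4%.

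Chromosomes contributed unequally to the difference. Chromosome 17 held 456 wild-type intervals (3.04% of the list, 2.77 to 3.32) and 101 knockout intervals (0.832%, 0.678 to 1.01), which puts the knockout share at 0.274 times that of wild type (0.219 to 0.341). It was the only chromosome with more than 6 wild-type intervals whose share was at least 2-fold lower, and 94.7% of its wild-type intervals (432 of 456) had no knockout counterpart. Chromosome 22 followed with 96 and 40 intervals (ratio of knockout to wild-type shares 0.515, 0.347 to 0.753). Smaller deficits in the knockout, with 95% intervals below 1, were found on chromosomes 9 (464 and 269, 0.717), 5 (679 and 420, 0.765), 8 (466 and 316, 0.839), 2 (1955 and 1356, 0.858), 3 (551 and 387, 0.869) and 11 (972 and 688, 0.876).

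The opposite was found on 6 chromosomes. Chromosome 14 held 716 wild-type and 867 knockout intervals (ratio of shares 1.5, 1.36 to 1.66, and by called peaks 2.08, 1.83 to 2.36) and had the lowest unmatched shares among the 16 chromosomes with at least 100 intervals in each list. There, 38.5% of wild-type and 22.95% of knockout intervals had no counterpart. Chromosome 15 held 155 and 200 intervals (1.6, 1.29 to 1.98, but by called peaks 1.25 with an interval from 1.0 to 1.57 that held 1), and its positions matched poorly in both directions, with 80.0% of wild-type and 84.0% of knockout intervals unmatched. It was the only one of those 16 on which the unmatched share was larger in the knockout. The others were chromosome 12, which carries METTL7A (478 and 522, 1.35), chromosome 19 (896 and 921, 1.27), chromosome 20 (2664 and 2530, 1.17) and the sparse chromosome 13 (12 and 23, 2.37, 1.13 to 5.23, but 1.65 by called peaks). The knockout had more intervals by number on 5 of these, chromosome 20 being the exception.

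Chromosomes 1 (1372 and 1068), 4 (36 and 23), 6 (78 and 43), 7 (1636 and 1358), 10 (301 and 237), 16 (978 and 735), 18 (51 and 36) and 21 (6 and 1) had ratios whose 95% intervals held 1. By called peaks chromosome 6 was lower in the knockout (0.538, 0.359 to 0.798). For chromosome 7 the ratio was 1.03 (0.955 to 1.1), which joined parts of the chromosome with ratios above and below 1. Median widths varied little among the 16 chromosomes, from 2250 to 3100 bp in wild type and from 1550 to 1850 bp in the knockout, so that the narrower knockout intervals were a feature of every one of them.

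**Figure D3:**
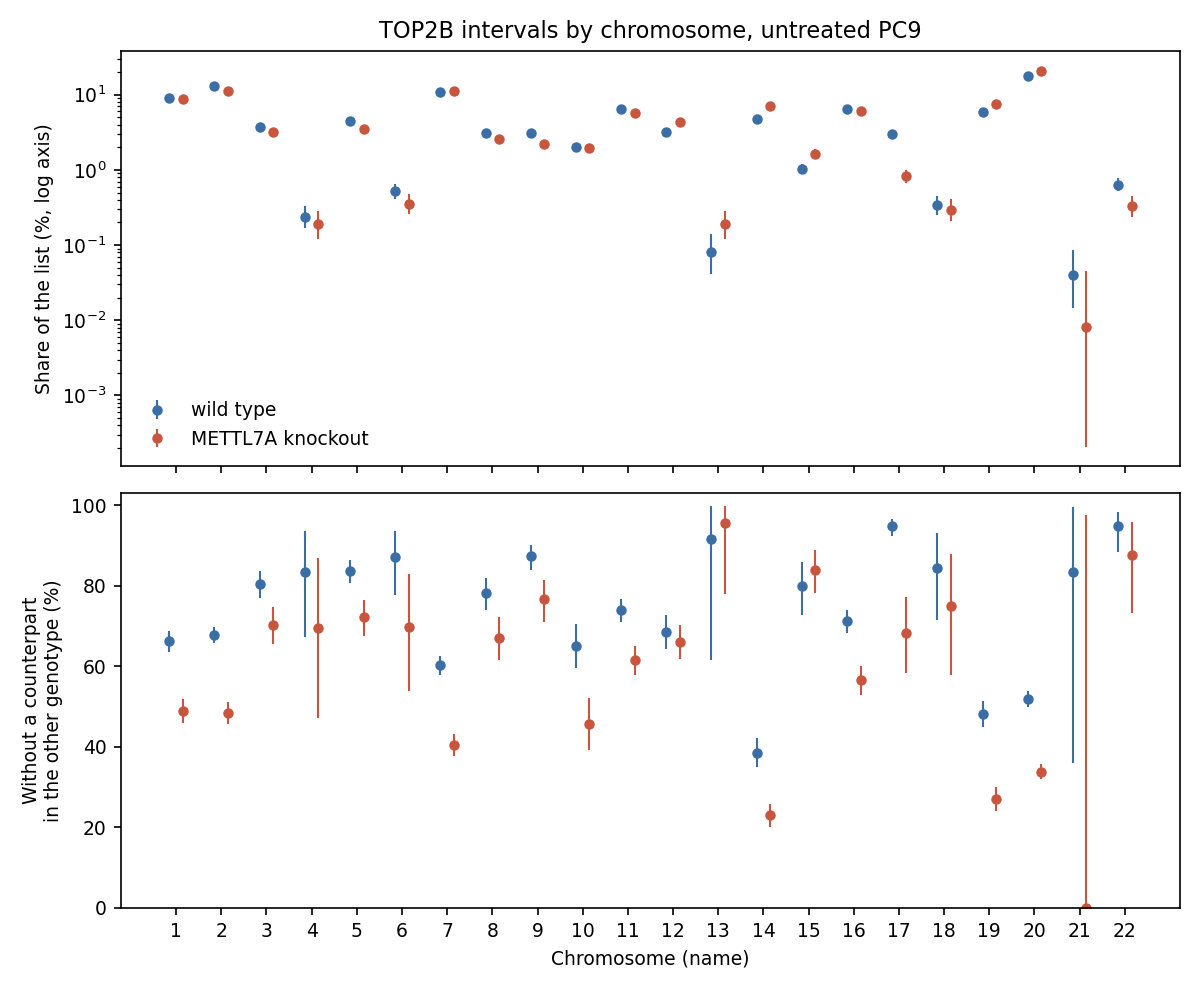
TOP2B intervals of untreated PC9 cells by chromosome (horizontal axis, names). The upper panel gives the share of each list (%, log axis) and the lower panel the share of intervals without a counterpart in the other genotype (%), for wild type (blue) and METTL7A knockout (red), with exact 95% intervals for counting error as bars. Chromosome 17 shows the widest separation of well-filled chromosomes in the upper panel, at 3.04% against 0.832%, and chromosome 14 the lowest unmatched shares in the lower panel among the 16 chromosomes with at least 100 intervals in each list.

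Regions were then compared in windows of 5 Mb in which either list had 20 or more intervals, and neighbouring windows at least 2-fold apart in the same direction were joined into segments. Among 148 windows, the knockout share was lower by 2-fold or more in 26 (17.6%) and higher by 2-fold or more in 5 (3.38%). The longer wild-type list reaches 20 intervals more easily, and every lower window outside chromosome 20 passed this limit through wild type alone. The counts of lower and higher windows are therefore not on equal terms. They formed 21 lower segments on 13 chromosomes, holding 1338 wild-type and 326 knockout intervals, and 2 higher segments with 117 and 218 intervals.

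Chromosome 17 held 4 of the lower segments. The first 10 Mb had 148 wild-type and 17 knockout intervals (0.142, 0.0806 to 0.235), and 15 to 20 Mb had 83 and 11 (ratio of shares 0.164, 0.0788 to 0.309). At 40 to 45 Mb the counts were 28 and 5 (0.221, 0.0666 to 0.579), and at 70 to 80 Mb they were 75 and 15 (0.247, 0.132 to 0.434) with no matched interval on either side. The longest unbroken run of unmatched wild-type intervals, 112 in a row, spanned 32.5 Mb from position 48627701 of chromosome 17, a stretch in which the knockout list had 23 intervals at other positions. Runs were examined after the values had been seen.

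On chromosome 7 the last segment, from 145 to 160 Mb, had 206 wild-type and 34 knockout intervals (0.204, 0.138 to 0.295), and 94.2% of the wild-type ones were unmatched. A run of 77 unmatched wild-type intervals covered 5.83 Mb of it. The window at 70 to 75 Mb was also lower, with 27 and 8 intervals (0.367, 0.144 to 0.829). On chromosome 20 the lower windows of 5 Mb were those from 30 to 40 Mb, with 389 and 135 intervals and 82.0% of the wild-type ones unmatched. This was the lower segment with most intervals, and its ratio by called peaks (265 and 132) was 0.43 (0.346 to 0.532), close to 0.429 by intervals (0.35 to 0.523). The unmatched shares of these segments, chosen for few knockout intervals, stand beside 65.4% in the whole wild-type list. Outside windows of 1 Mb in which either list had 50 or more intervals, the wild-type share was 80.1%.

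The remaining lower segments were single windows of 5 Mb with 20 to 53 wild-type intervals. The sharpest were on chromosome 19 from 45 Mb (31 and 3 intervals, 0.12, 0.0234 to 0.384), on chromosome 12 from 120 Mb (20 and 2, 0.124, 0.014 to 0.509) and on chromosome 6 from 30 Mb (28 and 4, 0.177, 0.045 to 0.505). Chromosome 1 had such windows from 155 Mb (21 and 4) and from 30 Mb (31 and 11), chromosome 22 from 35 Mb (26 and 6) and from 20 Mb (27 and 9), and chromosome 19 also from 35 Mb (20 and 6) and from 15 Mb (24 and 8). Single windows were found at the first 5 Mb of chromosome 16 (53 and 14, 0.327, 0.167 to 0.597), 120 to 125 Mb of chromosome 2 (20 and 5), 10 to 15 Mb of chromosome 3 (27 and 9), 130 to 135 Mb of chromosome 9 (30 and 11) and 80 to 85 Mb of chromosome 10 (24 and 9). For the last of these the 95% interval of the ratio reached above 1 (0.464, 0.19 to 1.03), and by summed length the window of chromosome 9 had a ratio of 0.617. In each of the 21 lower segments, 82.0 to 100% of the wild-type intervals had no knockout counterpart.

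By intervals, the knockout exceeded wild type 2-fold in 2 segments. From 5 to 25 Mb of chromosome 20 it had 196 intervals against 111 (2.18, 1.72 to 2.78), and 168 of the 196 (85.7%) had no wild-type counterpart. This share comes from a segment chosen for few wild-type intervals, of which 74.8% were unmatched too. It stands beside 46.8% in the whole knockout list and 67.3% outside windows of 1 Mb in which either list had 50 or more intervals. By called peaks, 195 and 99, the ratio was 1.7 and under 2-fold. From 95 to 100 Mb of chromosome 15 the knockout had 22 intervals against 6 (4.54, 1.78 to 13.7), with no matched interval in either list. That segment was part of the longest run of unmatched knockout intervals, 46 in a row over 7.5 Mb of chromosome 15 from position 93575601, among which lay 14 wild-type intervals. Chromosome 20 thus carried a knockout excess and a knockout deficit near each other. Called peaks gave a different set of higher windows: 7 of the 148 were at least 2-fold higher, and only the one on chromosome 15 was also among the 5 by intervals. The other 6 lay on chromosome 7 from 55 Mb (74 and 216 called peaks, ratio with the added counts 2.51), chromosome 14 from 75 Mb (2.31) and 100 Mb (2.08), chromosome 19 from 55 Mb (2.22) and chromosome 20 from 55 Mb (2.08) and 60 Mb (3.3). By intervals these 6 had ratios of 1.33 to 1.83. All 26 lower windows were also at least 2-fold lower by called peaks, among 34 that were.

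At the finer scale of 1 Mb, 1169 windows held an interval of at least 1 list. In 839 of them both genotypes had intervals, in 206 wild type alone (482 intervals, 3.21% of its list, at most 23 in a window) and in 124 the knockout alone (185 intervals, 1.52%, at most 7 in a window). Among 227 windows in which either list had 20 or more intervals, the knockout share was lower by 2-fold or more in 30 (13.2%) and higher by 2-fold or more in 3 (1.32%), with 0.5 added to each count. The lower windows passed the limit of 20 through wild type alone, except 2 on chromosome 7, at 0 to 1 Mb (79 and 20 intervals) and 1 to 2 Mb (84 and 27). Counting called peaks changed this split: of 194 windows, 23 were then at least 2-fold lower and 25 at least 2-fold higher. The lower windows were on chromosomes 7 (10 windows), 20 (7), 17 (5), 1, 5 and 9 (2 each), 8 and 16 (1 each).

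The lowest ratios were those of chromosome 17 at 18 to 19 Mb, with 23 intervals against 0 (the ratio is at most 0.215 at 95%), at 79 to 80 Mb, with 27 against 1, and at 4 to 5 Mb, with 23 against 3. Chromosome 7 followed the same course at 158 to 159 Mb, with 20 against 1, and at 155 to 156 Mb, with 33 against 2. The highest were those of chromosome 20 at 17 to 18 Mb (22 against 39, ratio 2.17 with the added counts) and at 5 to 6 Mb (13 against 23, 2.15), and of chromosome 12 at 13 to 14 Mb (17 against 28, 2.01). By called peaks the last 2 had ratios of 1.5 and 1.53, under 2-fold. The next ones, 55 to 56 Mb of chromosome 7 (95 and 153, 1.99) and 47 to 48 Mb of chromosome 10 (20 and 30, 1.84), were under 2-fold by intervals but past it by called peaks (2.84 and 2.42). On the other side, 88 to 89 Mb of chromosome 16 (49 and 19, 0.487) was just inside the limit and 2 to 3 Mb of chromosome 7 (84 and 34, 0.505) just outside.

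Chromosome 7, which carries EGFR, therefore held windows with ratios on both sides of 1. At 55 to 56 Mb most intervals of both genotypes had a counterpart: 16 of the 95 wild-type and 19 of the 153 knockout intervals were unmatched. The excess of the knockout there came with more called peaks (149 against 45) and a shorter summed length (452 kb against 585 kb). Both lengths are large beside a window of 1 Mb, and the overlap that such coverage alone would give was not tested. The position of EGFR within these windows was not examined.

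On chromosome 20, the windows from 56 Mb (124 and 121), 60 Mb (124 and 168) and 55 Mb (114 and 119) had the highest wild-type counts of all windows. The highest knockout counts were those of chromosome 20 from 60 Mb and of chromosome 19 from 55 Mb (110 and 157), followed by the window named on chromosome 7. The 87 windows in which either list had 50 or more intervals held 45.4% of the wild-type list and 54.0% of the knockout list, and their median ratio of shares was 1.2, against 0.78 in the other 140 examined windows. Inside them 47.8% of wild-type and 29.3% of knockout intervals were unmatched, and outside them 80.1 and 67.3%.

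**Figure D4:**
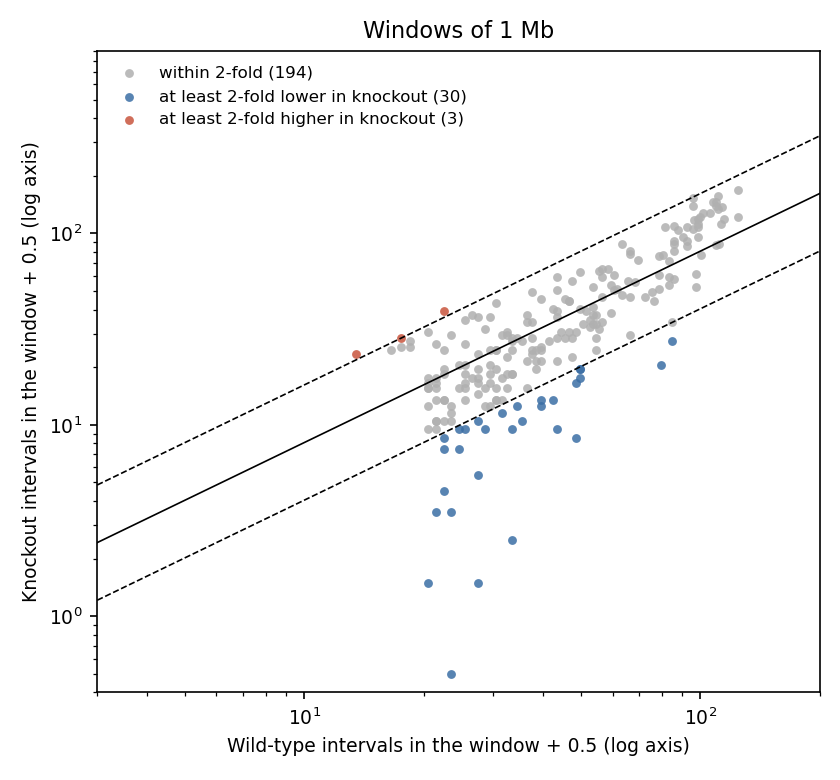
Number of wild-type (horizontal) and knockout (vertical) intervals in each of 227 windows of 1 Mb in which either list had 20 or more, with 0.5 added and both axes logarithmic. The solid line marks equal shares of the lists and the dashed lines a 2-fold difference. Blue points are the 30 windows at least 2-fold lower in the knockout, red points the 3 at least 2-fold higher, and grey points the 194 others.

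The highest peaks were common to both genotypes. Every called peak whose maximum was over 5 times the median of its list, 14 in wild type and 15 in the knockout, had a counterpart. The highest pair was at chr7:61968501-61970850 in wild type (262 times the list median) and chr7:61968401-61970650 in the knockout (220.2 times). The others were at chr1:121484251-121485500 (107 and 95.8 times), chr6:58776151-58780200 (91.0 and 87.6 times), chr16:46416251-46436100 (53.5 and 47.8 times) and chr16:46385801-46410800 (28.2 and 29.6 times), given by their wild-type span. These positions are near the centromeres of their chromosomes, regions rich in satellite repeats.

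Unmatched peaks had lower maxima than matched ones in both lists, and none was among the highest. Unmatched called peaks had a median maximum of 0.909 times the list median in wild type and 1.0 in the knockout, against 1.18 and 1.2 for matched ones. The quartiles of the unmatched knockout peaks were 0.8 and 1.2, against 1.0 and 1.4 for matched ones. In wild type they were 0.818 and 1.09 for unmatched peaks, against 1.0 and 1.36 for matched ones. The highest unmatched wild-type peaks were at chr16:33293751-33294750 (2.73 times the list median), chr19:54985601-54991350 (2.36 times), chr8:58122051-58123100 (2.18 times), and chr8:144941701-144957400 and chr20:49495701-49497700 (both 2.0 times). For the peaks at chr19:54985601 and chr8:144941701 the region of the maximum lay before the printed span, starting at 54985101 and 144940601. The highest unmatched knockout peaks were at chr5:49433951-49435400 (3.6 times), chr10:42599551-42600450 (3.2 times), and chr20:29651501-29652350, chr20:3716551-3717550 and chr7:47073851-47074500 (2.4 times each). The first 3 of the knockout also lie near centromeres. Maxima rank peaks within a list only, because no source used here states how the signal was scaled.

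The treated lists were made from other libraries of the same genotypes and were not used to define matched and unmatched intervals. They held 9632 intervals in wild type (12.0 Mb) and 7168 in the knockout (8.82 Mb) on chromosomes 1 to 22. The share found again was larger for positions common to both untreated genotypes than for positions of a single genotype. Of the matched knockout intervals, 34.7% (33.5 to 35.8) overlapped a treated knockout interval, against 8.79% (8.06 to 9.55) of the unmatched ones. Of the matched wild-type intervals, 21.4% (20.3 to 22.6) overlapped a treated wild-type interval, against 11.7% (11.1 to 12.4) of the unmatched ones.

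Unmatched positions of either genotype were found in both treated lists. Unmatched knockout intervals overlapped the treated wild-type list in 7.15% (6.49 to 7.85) of cases, beside their 8.79% in the treated knockout list. Unmatched wild-type intervals overlapped the treated knockout list in 10.0% (9.42 to 10.6), beside their 11.7% in the treated wild-type list. Matched wild-type intervals overlapped the treated knockout list in 40.3% (38.9 to 41.6), and matched knockout intervals the treated wild-type list in 16.8% (15.9 to 17.7). Of all untreated wild-type intervals, 20.5% overlapped the treated knockout list and 15.1% the treated wild-type list, although the former is shorter. For all untreated knockout intervals the shares were 22.6 and 12.3%. The treated lists differ in length and covered bases, so these shares have no common scale. Matched intervals are wider, and within the class of up to 1500 bp the knockout shares in the treated knockout list were 22.6% (20.8 to 24.4) for matched and 6.75% (5.86 to 7.73) for unmatched intervals. Wild-type intervals of 1500 to 2500 bp, the most numerous wild-type class, differed little in the treated wild-type list, with 12.1% (10.4 to 14.1) of matched and 10.8% (9.83 to 11.8) of unmatched ones overlapped. The other classes differed more, with 11.7 and 5.36% up to 1500 bp, 16.6 and 13.1% at 2500 to 4000 bp, and 32.8 and 22.2% over 4000 bp. In the treated knockout list wild-type intervals of 1500 to 2500 bp gave 24.0% (21.7 to 26.5) and 7.93% (7.1 to 8.82).

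**Figure D5:**
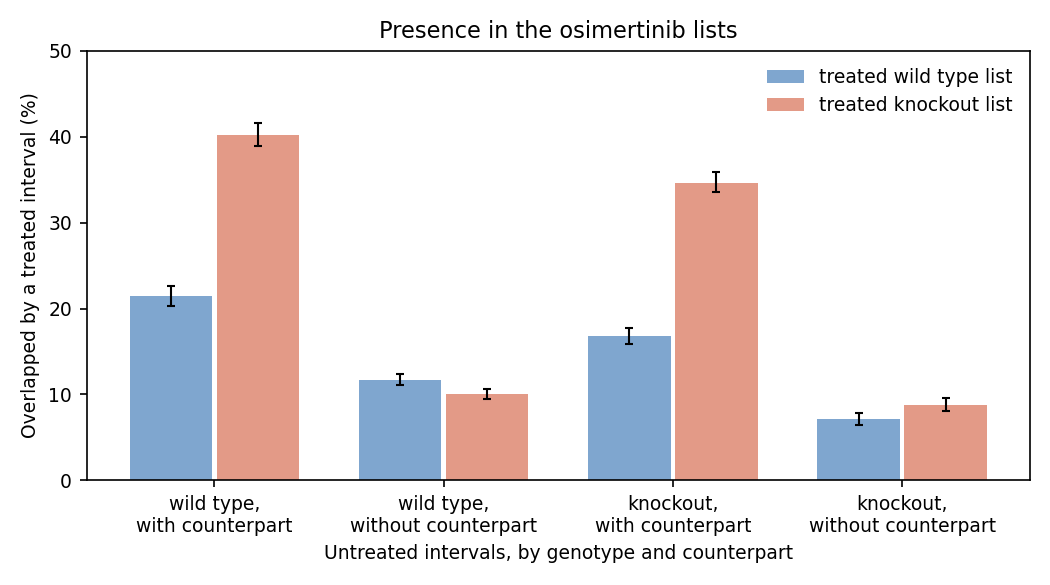
Share of untreated intervals overlapped by an interval of the treated wild-type list (blue) or the treated knockout list (red), vertical axis in %, for intervals with and without a counterpart in the other untreated genotype. Error bars are exact 95% intervals for counting error. Unmatched intervals stay between 7.15 and 11.7%. In the treated knockout list matched intervals reach 40.3% for untreated wild type and 34.7% for the untreated knockout, and in the treated wild-type list 21.4 and 16.8%.

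On chromosome 17, some of the positions missing from the untreated knockout were found again in treated wild type and none in the treated knockout list. Of the 432 unmatched wild-type intervals, 130 (30.1%, 25.8 to 34.7) overlapped a treated wild-type interval and 0 a treated knockout interval, a count that allows a share of up to 0.694% (3 counts of the total, or 0.85% by the exact 95% limit). Chromosomes 7, 14 and 20 ran the other way. There, 2.94, 2.9 and 6.66% of the unmatched wild-type intervals overlapped a treated wild-type interval, and 13.8, 9.78 and 15.3% a treated knockout interval. Matched wild-type intervals ran the same way, so these directions were not particular to unmatched positions. On chromosomes 7, 14 and 20, 100 of 651, 79 of 440 and 223 of 1283 matched ones overlapped a treated wild-type interval. A treated knockout interval overlapped 332, 192 and 570 of them. On chromosome 17 the counts were 11 and 5 of 24. The part that the number of treated intervals on each chromosome had in this was not tested. In the treated lists, the first 10 Mb of chromosome 17 held 225 treated wild-type and 7 treated knockout intervals. Its segment from 15 to 20 Mb held 146 and 3, and that from 70 to 80 Mb held 392 and 13. The distal segment of chromosome 7 held 32 and 6, while chromosome 20 held 125 and 53 from 30 to 40 Mb (ratio of shares 0.57, 0.405 to 0.792). The knockout excess at 5 to 25 Mb of chromosome 20 was found in the treated lists too, with 47 and 79 intervals (2.26, 1.55 to 3.31). On chromosome 15 the segment from 95 to 100 Mb held 0 treated wild-type and 7 treated knockout intervals.

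Not every segment kept its direction under treatment. The first 5 Mb of chromosome 16, lower in the untreated knockout, held 2 treated wild-type and 9 treated knockout intervals. Of the 26 windows of 5 Mb that were lower in the untreated knockout, 14 (53.8%) were at least 2-fold lower in the treated knockout and 4 (15.4%) at least 2-fold higher. Over all 148 windows these shares were 27.7 and 35.8%. The limit of 20 intervals was set on the untreated lists, and some of the lower windows held few treated intervals. Chromosome 1 from 30 Mb held 0 treated wild-type and 5 treated knockout intervals, chromosome 7 from 70 Mb 0 and 3, and chromosome 22 from 20 Mb 0 and 4. Of the 5 windows higher in the untreated knockout, 3 were at least 2-fold higher in the treated knockout and 0 at least 2-fold lower. The treated and untreated comparisons share the cell lines but no library.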

How the data were processed

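The 4 TOP2B peak lists were on GRCh37. Per the submitters' processing notes, the authors used SEACR, Bowtie2 2.4.2, bedtools 2.30, deepTools 3.5.1, SAMtools, FastQC and Trimmomatic. No source used here states the control or mode of the peak caller or the handling of duplicates. Each deposited interval carries the area of its called peak, a deposited score (signal summed over bases), and its maximum, a deposited signal (highest coverage). Their scaling and the replicate they came from are not stated, and library depth is unknown.

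Lists were read in Python 3.11.15 (pandas 2.3.3, SciPy 1.17.1), and overlaps were checked against bedtools 2.31.1 and on simulated intervals. Intervals on chromosomes 1 to 22 were kept, which left out 263 (wild type) and 352 (knockout), on chromosome X apart from 1 each on MT. A counterpart overlapped by at least 1 bp. Intervals sharing columns 1, 4, 5 and 6 were 1 called peak. Windows were filled by interval midpoints. Shares carry Clopper-Pearson 95% intervals and ratios exact conditional ones, for counting error only. Named positions were the 5 highest and 5 lowest windows of 1 Mb by ratio, all segments, the 5 highest unmatched peaks per list (1 per Mb), the 5 highest matched pairs and the 3 fullest windows per list. The members, lists and rules were chosen with earlier results of these data known. No GRCh37 annotation was used here, so planned gene comparisons were not run, the METTL7A locus was not examined and the genotype labels were not checked. The 8 H2A samples were not analysed here.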

Additional observations from a re-analysis of the deposited data

How the results depend on the processing

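Shares without a counterpart depended on what counted as overlap and on local density. In wild type the share (65.4%) became 87.8% with an overlap of 50% of both intervals, 58.8% with gaps of up to 1000 bp allowed, 62.2% for maxima at or above the list median and 80.1% without windows of 50 or more intervals. In the knockout (46.8%) the same settings gave 84.96, 37.9, 48.0 and 67.4%. The dense windows were removed from both lists before matching, which drops partners across their borders, so this share is slightly above the 67.3% of knockout intervals unmatched outside them in the full lists. With every interval set to 1000 bp around its midpoint, a setting added after seeing the data, the shares were 80.1 and 75.2%, so the gap between genotypes narrowed. Called peaks or chromosome X moved neither share beyond its interval. The ratio of list lengths (0.808) reversed to 1.16 by called peaks, was 0.471 by covered length and 0.911 for maxima at or above the list median. The 30 lower windows became 49 by number of intervals, 63 with at least 10 intervals and 9 with at least 40. The 3 higher windows became 25 by called peaks, 0 by number, 13 with at least 10 intervals, 0 with at least 40 and 5 in windows of 5 Mb. Called peaks kept all 21 lower segments and 1 of 2 higher ones past 2-fold, and summed length kept 19 and 2. No paired analysis was possible because each genotype has 1 list pooled from its replicates, and for the same reason no replicate could be left out.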
